A study of Mus musculus with 81 samples.

Results

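The low dose mice were the 5 animals that received 2.5e8 cells of the product mRBC-OVA-4-1BBL-IL-12 per dose, and their tumor was compared with their own day 7 blood. These 10 samples, 2 from each of 5 mice, were chosen from the 81 samples of the series by their labels alone, through dose, tissue and mouse number. mRBC-OVA-4-1BBL-IL-12 are mouse red blood cells carrying the ovalbumin peptide SIINFEKL on H-2Kb, the costimulatory ligand 4-1BBL and the cytokine IL-12. Every mouse was a CD45.1 Pep Boy female that bore a tumor from 2e6 injected EG7.OVA cells and received 1e6 OT-1 cells before dosing on days 0 and 3. Control mice, used here for 4 pairs, received 1e9 mRBC-CTRL, and full dose mice, used for 5 pairs, received 1e9 cells of the same product on those days. The hosts kept their own T cells, so each sample mixed transferred and host receptors. The tumors also held the tumor line itself, since EG7.OVA is a T lymphoma line with a rearranged receptor of its own.

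A T cell receptor beta chain is made by joining a V, a D and a J segment, with bases trimmed from and added to the junctions. The junction encodes CDR3, the loop that contacts peptide and MHC, and its DNA sequence marks the descendants of a single cell. OT-1 cells come from mice transgenic for 1 receptor, which recognizes SIINFEKL on H-2Kb, so they share 1 CDR3. T cells that divide after meeting antigen recirculate through blood and can accumulate in tissue, and clones present in both can be followed by their rearrangements. Counts below are templates, an estimate of the number of genomes that carried each rearrangement in the extracted DNA, and only in-frame rearrangements were used. They give shares of a repertoire, not numbers of cells per volume of blood or per tumor.

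The sequences that carry the comparison are OT-1 and the largest other rearrangement in the tumor of each low dose mouse. They are printed 5′ to 3′ as the 87 bases deposited, and the capitals mark the bases of CDR3, whose last codon lies past the end of the read. The largest clones of mice 2 and 3 are named below by mouse and segment, and their CDR3s are shown by their DNA.
OT-1, all 5 mice: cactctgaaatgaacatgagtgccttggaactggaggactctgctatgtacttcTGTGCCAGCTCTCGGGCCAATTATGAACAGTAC
Mouse 1, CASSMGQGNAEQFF: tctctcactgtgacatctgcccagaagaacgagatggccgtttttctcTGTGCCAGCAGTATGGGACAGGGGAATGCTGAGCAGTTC
Mouse 2, largest clone: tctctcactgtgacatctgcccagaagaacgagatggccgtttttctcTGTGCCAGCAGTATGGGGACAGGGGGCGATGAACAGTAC
Mouse 3, largest clone: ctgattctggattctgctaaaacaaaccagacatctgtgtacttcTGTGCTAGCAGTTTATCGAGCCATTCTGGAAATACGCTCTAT
Mouse 4, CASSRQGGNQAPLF: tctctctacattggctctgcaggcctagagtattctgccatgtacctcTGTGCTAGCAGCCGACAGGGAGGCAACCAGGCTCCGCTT
Mouse 5, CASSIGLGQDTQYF: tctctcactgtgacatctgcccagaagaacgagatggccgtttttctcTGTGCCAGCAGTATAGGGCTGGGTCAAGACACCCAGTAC
OT-1 was read with TCRBV12-01 and TCRBJ02-07. The largest clones of mice 1, 2 and 5 used TCRBV19-01, that of mouse 3 used TCRBV29-01, and that of mouse 4 used TCRBV17-01. No base differed between mice in the OT-1 rearrangement printed, which held 98.3% to 99.6% of the OT-1 templates in the low dose tumors. The same CDR3 was read from 9 to 40 rearrangements per tumor in all.

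In-frame templates numbered 28643, 16083, 52361, 3436 and 34752 in the tumors of mice 1 to 5, and 3830, 5058, 2690, 3043 and 3060 in their day 7 bloods. Mouse 4 had the shallowest tumor sample. The receptor with the CDR3 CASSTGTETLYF held 24.0%, 26.3%, 49.1%, 7.60% and 22.9% of the tumor templates of mice 1 to 5. Over the series it was found in all 15 tumors and in 4 of 66 blood samples, each time with 1 template in the blood. It was taken as the receptor of the EG7.OVA line and left out of every denominator below unless stated. Receptors other than this one and OT-1 are called endogenous. They numbered 13790, 8963, 12615, 2589 and 6727 templates in the tumors and 3668, 4900, 2482, 2939 and 2830 in the bloods of mice 1 to 5.

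OT-1 made up a far larger part of the tumor than of the blood in all 5 low dose mice. Its share of tumor templates was 36.6%, 24.3%, 52.7%, 18.5% and 74.9% in mice 1 to 5, against 4.23%, 3.12%, 7.70%, 3.42% and 7.52% in day 7 blood. The groups did not overlap, the lowest tumor standing above the highest blood, and the tumors spread more widely than the bloods. The mean was 41.4% ± 22.8 (SD, n = 5) in tumor and 5.20% ± 2.24 (SD, n = 5) in blood. Each tumor was 8.66, 7.79, 6.84, 5.40 and 9.96 times its own blood, so the ratio varied less between mice than the share did. The 95% Wilson intervals of the shares, which cover counting error only, ran from 17.1% to 19.8% for the shallowest tumor and from 2.83% to 4.12% for the blood of the same mouse. The within-mouse difference was 36.2 ± 20.8 percentage points (SD, n = 5), higher in 5 of 5 mice, with an exact sign-flip p = 0.0625, 2-sided, the smallest that 5 pairs allow, and an adjusted p of 0.0938 over 9 such tests. Blood taken minutes after the transfer, on day 0, held 22.5% ± 4.28 OT-1 (SD, n = 5), which counts cells injected into the circulation shortly before.

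**Figure D1:**
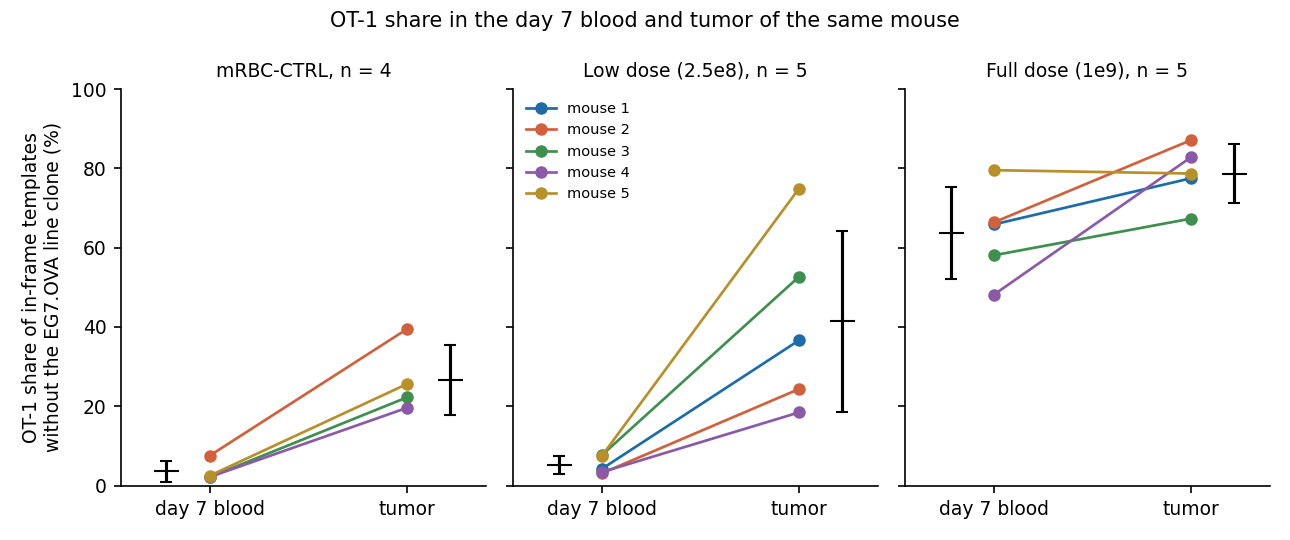
OT-1 share (%, y axis) of in-frame templates without the EG7.OVA line clone in day 7 blood and tumor, with a line for each mouse and a colour for each mouse number, which marks different animals in each panel. Black marks are means with SD as error bars. All 5 low dose mice rise from blood shares of 3.12% to 7.70% to tumor shares of 18.5% to 74.9%, and the full dose bloods start at 48.1% or above.

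The tumor over blood ratio of OT-1 at the low dose did not differ detectably from that in control mice and was larger than at the full dose. The ratio in control mice 2 to 5 was 5.21, 10.3, 8.90 and 10.1, and their log2 ratio averaged 3.06 ± 0.46 (SD, n = 4) against 2.92 ± 0.34 (SD, n = 5) at the low dose. The groups overlapped, and the difference of -0.14 in log2 ratio gave an exact permutation p = 0.571 and an adjusted p = 0.778 over 14 comparisons between doses. With the EG7.OVA line clone kept in the denominator the difference became 1.06, with an exact permutation p = 0.0476. In full dose mice the ratio was 1.18, 1.31, 1.16, 1.72 and 0.99 for mice 1 to 5, from bloods in which OT-1 already held 48.1% to 79.5% of templates. The low dose exceeded the full dose by 2.60 in log2 ratio, every low dose mouse above every full dose mouse, with an exact permutation p = 0.00794, the smallest the design allows. Its adjusted p was 0.0317 over the 4 OT-1 comparisons and 0.111 over all 14. A share cannot exceed the whole, which bounds the ratio at the full dose, and the part this has in the difference was not tested. On the log2 odds scale, chosen after seeing the data, the difference was 2.63 with p = 0.00794 by exact permutation. In percentage points it was 21.1, with an exact permutation p = 0.0794, and paired by mouse number, which marks different animals, it gave an exact sign-flip p = 0.0625.

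In 4 of 5 low dose mice, most endogenous tumor templates belonged to rearrangements that were also found in the day 7 blood of that mouse, the exception being mouse 5. Tumor and day 7 blood had 126, 87, 117, 44 and 83 endogenous rearrangements in common in mice 1 to 5, which was 5.08%, 8.41%, 5.29%, 11.2% and 4.46% of the rearrangements of the tumor and 5.62%, 3.17%, 7.30%, 2.66% and 4.55% of those of the blood. Reading in both samples favours frequent rearrangements, so these few were bound to be large ones. With both samples of a mouse thinned to the same number of templates, they held 64.0%, 80.9%, 66.4%, 67.8% and 41.7% of the tumor templates but 16.6%, 21.1%, 18.0%, 16.6% and 9.27% of the blood templates. The tumor share exceeded the blood share by 47.9 ± 9.91 percentage points (SD, n = 5), in 5 of 5 mice, with an exact sign-flip p = 0.0625. How much of this difference follows from the dominance of few clones in the tumor, given below, was not tested. Of the 50 largest endogenous rearrangements of each tumor, 34, 34, 36, 23 and 25 were found in the blood of mice 1 to 5.

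The mouse numbers paired the samples. At 2482 templates per sample, 63.5% ± 14.1 (SD, n = 5) of tumor templates were shared with the blood of the same mouse, against 0.230% on average over the 20 pairs of a tumor with the blood of another low dose mouse, the highest of which was 2.04%. Own pairs exceeded the others with a 1-sided exact permutation p = 0.00833, the smallest the 120 pairings allow. The endogenous share of tumor templates found in blood was 64.2% ± 14.2 (SD, n = 5) at the low dose, 56.8% ± 6.10 (SD, n = 4) in control mice and 56.6% ± 19.5 (SD, n = 5) at the full dose. Neither difference passed an exact permutation test, with p = 0.357 against control and p = 0.508 against the full dose. Without low dose mouse 5, which had the lowest share, the difference from control was 12.99 percentage points with an exact permutation p = 0.0286. Without low dose mouse 2 it was 3.19 and without control mouse 4 it was 4.48, with p = 0.629 and p = 0.589 by exact permutation. At one depth of 482 templates for all mice the difference from control was 13.96 percentage points, with an exact permutation p = 0.167.

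The endogenous repertoire of the tumor was dominated by few clones. The largest clone held 25.4%, 36.3%, 16.8%, 29.2% and 9.90% of endogenous tumor templates in mice 1 to 5, and the 10 largest together held 49.0%, 70.1%, 50.2%, 64.3% and 30.1%. In day 7 blood the largest clone held 4.31%, 6.86%, 3.06%, 9.05% and 0.883%, and it was in each mouse the same rearrangement as in the tumor. Clonality, which is 0 when all clones are equally frequent and approaches 1 when 1 clone holds everything, was 0.314, 0.468, 0.282, 0.386 and 0.180 in tumor. It was 0.0490, 0.0879, 0.0480, 0.0728 and 0.0218 in blood at equal depth. Every tumor stood above every blood, and mouse 2 was highest and mouse 5 lowest in both. The difference was 0.270 ± 0.0836 (SD, n = 5), higher in tumor in 5 of 5 mice, with an exact sign-flip p = 0.0625 and an adjusted p of 0.0938. The same difference was 0.299 ± 0.0783 (SD, n = 4) in control mice and 0.169 ± 0.0727 (SD, n = 5) in full dose mice. Exact permutation tests against the low dose gave p = 0.611 and p = 0.0714. Without low dose mouse 5 the difference from the full dose rose from 0.101 to 0.129, with an exact permutation p = 0.0159, and it was 0.125 without thinning, with p = 0.0317 by exact permutation. At one depth of 482 templates for all mice it was 0.0749, with an exact permutation p = 0.111, and without low dose mouse 2 or full dose mouse 2 it was 0.0738 and 0.0721, with p = 0.159 and p = 0.151 by exact permutation.

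**Figure D2:**
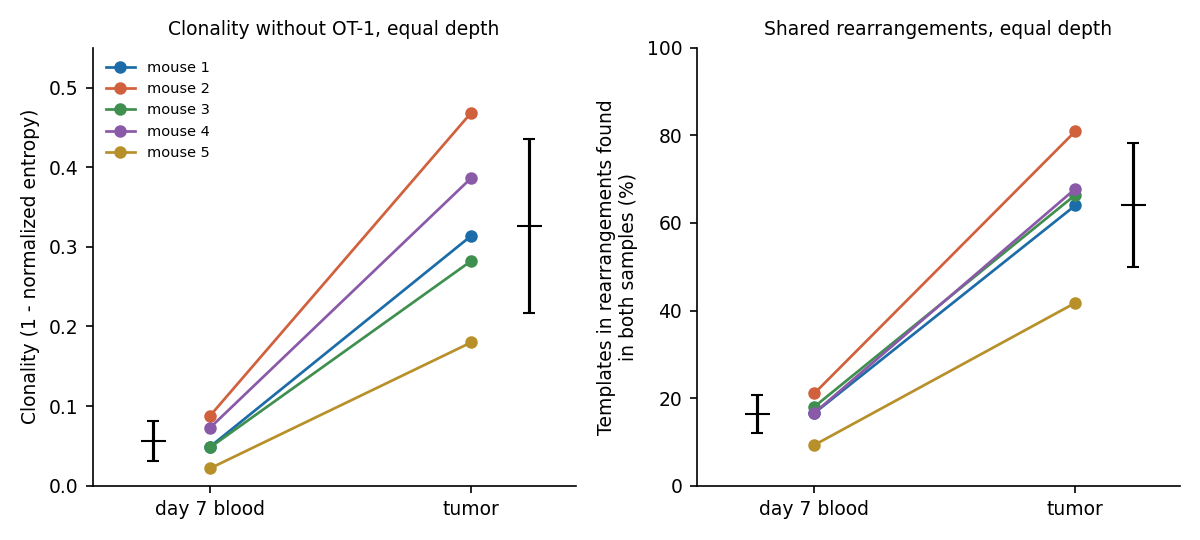
Clonality of the endogenous repertoire (left, no unit) and share of endogenous templates in rearrangements found in both samples (right, %) for the day 7 blood and tumor of each low dose mouse, at equal depth within the mouse. Lines join the samples of 1 mouse, and black marks are means with SD as error bars. Both measures are higher in every tumor, and mouse 5 is the lowest on both.

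The named clones show how the largest circulating clones stood in the tumor. In mouse 1, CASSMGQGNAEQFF held 25.4% of tumor and 4.31% of blood, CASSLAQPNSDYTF held 4.95% and 1.23%, and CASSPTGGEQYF held 4.60% and 1.15%. These were the 3 largest clones of both samples, in the same order, and the first stood far above the others. In mouse 2 the largest clone, with TCRBV19-01 and TCRBJ02-07, held 36.3% of tumor and 6.86% of blood, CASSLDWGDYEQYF held 8.87% and 1.06%, and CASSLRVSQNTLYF held 8.66% and 4.47%. The third largest blood clone of mouse 2, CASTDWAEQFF, held 1.46% of tumor and 1.82% of blood and was not called by Fisher's exact test, with an adjusted p of 0.164. In mouse 3 the largest clone held 16.8% of tumor and 3.06% of blood, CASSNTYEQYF held 6.75% and 2.42%, and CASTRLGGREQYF held 5.72% and 0.967%. The third largest blood clone of mouse 3 used TCRBV05-01 and held 5.02% of tumor and 1.37% of blood.

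In mouse 4, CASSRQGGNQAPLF held 29.2% of tumor and 9.05% of blood, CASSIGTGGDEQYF held 14.02% and 1.33%, and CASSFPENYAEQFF held 3.82% and 0.646%. The third largest blood clone of mouse 4, a TCRBV19-01 receptor, was an exception with 25 blood templates and 2 tumor templates, and was called lower in tumor with an adjusted p of 5.83e-05 by Fisher's exact test. In mouse 5, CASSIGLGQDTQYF held 9.90% of tumor and 0.883% of blood, an 11.2-fold ratio, a TCRBV13-01 clone held 4.03% and 0.707%, and a TCRBV05-01 clone held 3.36% and 0.565%. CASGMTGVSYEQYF, the second largest blood clone of mouse 5, held 1.22% of tumor and 0.742% of blood, with an adjusted p of 0.0996 by Fisher's exact test. All 15 of the 3 largest clones per tumor were called higher in tumor, with tumor over blood ratios from 1.94 for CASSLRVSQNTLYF to 11.2 for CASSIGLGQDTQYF. Clones were ranked here by their tumor share, so these calls describe the ranked clones and do not test whether large clones in general were enriched.

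Across all endogenous rearrangements with at least 5 templates in a mouse, 807 were tested and 194 of them, 24.0%, were higher in tumor, while 29, or 3.59%, were lower. Each was tested against all other endogenous templates of the same mouse by Fisher's exact test at an adjusted p under 0.05, which compares 2 samples of 1 animal and not conditions. The numbers higher were 42, 36, 25, 38 and 53 of 254, 103, 220, 55 and 175 tested in mice 1 to 5, and the numbers lower were 11, 6, 3, 5 and 4. Of the 807 clones, 223, or 27.6%, moved in either direction. The clones called higher together held 63.1%, 77.7%, 59.2%, 78.1% and 50.5% of endogenous tumor templates and 10.7%, 16.1%, 10.9%, 13.5% and 4.52% of those of the blood. Of the 194, 92 had no template in the day 7 blood, so they reached 5 templates through the tumor alone and could differ in that direction only. The tumor was the deeper sample in 4 of 5 mice, so the split between higher and lower is given as a description. At equal depth 364 clones were tested, of which 10 were lower and 165 higher. Of the 194, 26 were already seen in day 0 blood. Of the 29 lower clones, 17 had no template in tumor, so they reached 5 templates through the blood alone and could differ in that direction only. Among these were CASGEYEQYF of mouse 1 with 6 blood templates, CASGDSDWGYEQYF of mouse 4 with 7 and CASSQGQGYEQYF of mouse 5 with 8. Without mouse 1, which held 11 of the 29 lower clones and 254 of the 807 tested, 18 clones were lower. In control mice 343 of 1049 clones were higher and 14 lower, and in full dose mice 158 of 423 and 38. The share of tested clones that was higher averaged 32.4% ± 22.6 (SD, n = 5) per mouse at the low dose, 30.9% ± 18.9 (SD, n = 4) in control and 36.3% ± 18.3 (SD, n = 5) at the full dose, and did not differ by exact permutation tests, with p = 0.913 and p = 0.770, tests that cannot show equality.

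The count depends on what is held as the whole. With all in-frame templates in the denominator, OT-1 and the EG7.OVA line clone included, 807 clones were tested in the low dose mice. Of them, 69 were higher in tumor and 53 lower. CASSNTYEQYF of mouse 3 then stood below its blood share, at -0.45 in log2 ratio, with an adjusted p of 0.209 by Fisher's exact test, and 10 of the 15 clones described above were still called higher.

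**Figure D3:**
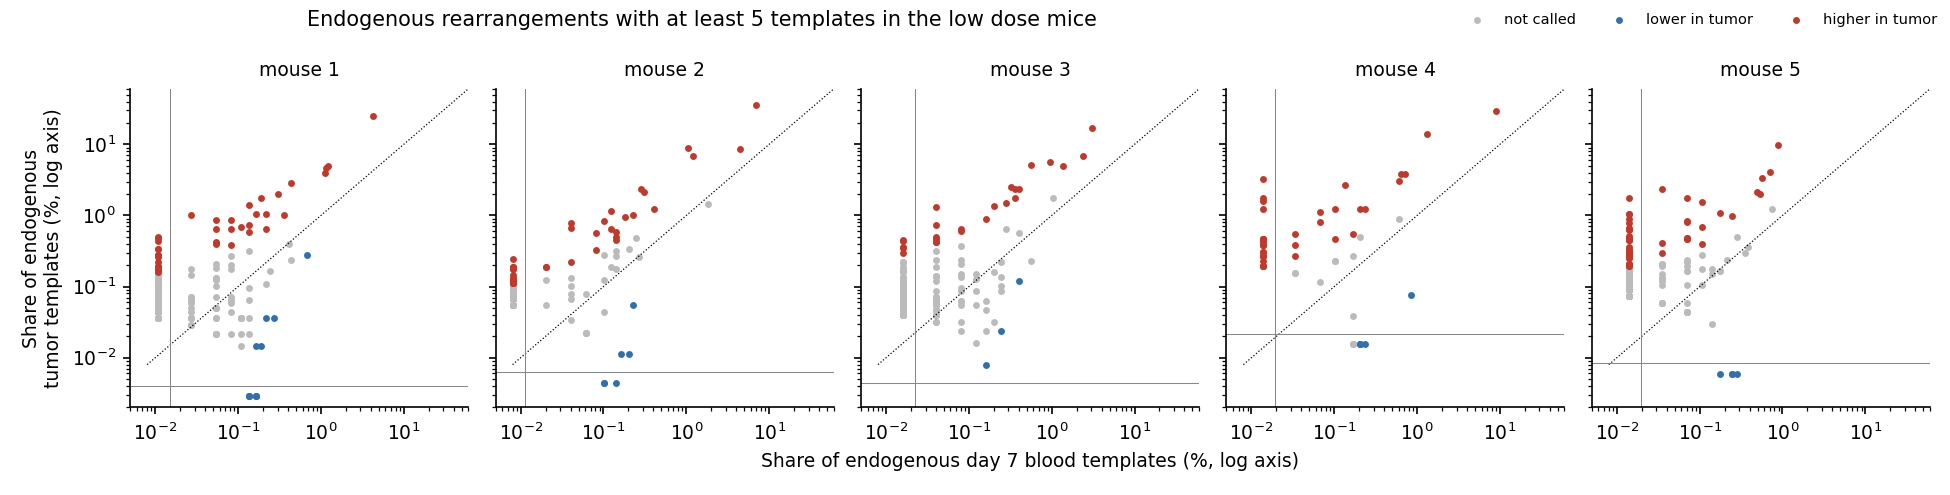
Share of endogenous tumor templates (%, log y axis) against share of endogenous day 7 blood templates (%, log x axis) for each rearrangement with at least 5 templates, with a panel for each low dose mouse. Points left of the vertical line have 0 blood templates, points under the horizontal line have 0 tumor templates, and the dotted line marks equal shares. Red points, 194 in all, are higher in tumor and blue points, 29 in all, are lower.

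OT-1 rose more from blood to tumor than nearly all endogenous clones with at least 10 blood templates. That limit leaves out clones rare in blood, which can have the highest ratios, so OT-1 was not ranked among all clones. A TCRBV13-01 clone of mouse 3, left out by it, had 166 tumor templates and 1 blood template. With OT-1 and endogenous clones in 1 denominator, 50 clones had at least 10 blood templates, and 34 of them had a larger share in tumor than in blood. Only 1 of the 50, in mouse 4, had a ratio above that of OT-1 in its mouse, 8.92 against 5.40. The largest clone of each tumor had a ratio of 3.91, 4.13, 2.81, 2.72 and 3.04 on this scale, below OT-1 in every mouse. The median ratio of these clones was 2.33, 1.96, 1.66, 4.15 and 1.10 in mice 1 to 5. With the EG7.OVA line clone left out, OT-1 was the most frequent CDR3 in the tumors of mice 1, 3 and 5. It was the second most frequent in those of mice 2 and 4.

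A few receptors were higher in the tumor of more than 1 low dose mouse. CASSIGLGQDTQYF, with TCRBV19-01 and TCRBJ02-05, was called in 3 mice through a different rearrangement in each, and a receptor of TCRBV17-01 and TCRBJ02-07 in 2 mice through 2 rearrangements. The last such receptor, of 15 residues with TCRBV04-01 and TCRBJ01-04, was called in mice 2 and 3 through the same rearrangement, which had no added bases. The sequences are printed to show which equal CDR3s came from different DNA and which from the same, with the CDR3 bases in capitals as before. That of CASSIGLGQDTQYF in mouse 5 is printed above.
Mouse 2, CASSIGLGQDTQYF: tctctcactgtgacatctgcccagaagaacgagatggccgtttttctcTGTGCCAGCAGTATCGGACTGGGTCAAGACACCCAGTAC
Mouse 3, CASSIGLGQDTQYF: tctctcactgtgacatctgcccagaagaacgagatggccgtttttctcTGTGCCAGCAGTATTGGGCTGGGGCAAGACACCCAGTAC
Mouse 2, TCRBV17-01 receptor: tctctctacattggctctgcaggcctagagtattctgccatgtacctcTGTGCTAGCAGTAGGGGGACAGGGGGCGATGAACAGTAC
Mouse 5, TCRBV17-01 receptor: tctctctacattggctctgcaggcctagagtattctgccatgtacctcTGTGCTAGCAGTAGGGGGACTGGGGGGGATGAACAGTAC
Mice 2 and 3, TCRBV04-01 clone: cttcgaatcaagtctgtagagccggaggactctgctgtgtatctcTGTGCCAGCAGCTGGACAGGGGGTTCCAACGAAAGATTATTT
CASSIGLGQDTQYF held 0.190%, 0.650% and 9.90% of endogenous tumor templates in mice 2, 3 and 5 and 1, 2 and 25 templates in their day 7 bloods. The TCRBV17-01 receptor held 6.94% of the tumor and 1.204% of the blood of mouse 2. In mouse 5 it held 0.892% of the tumor and 0 of 2830 blood templates, which allows a share of up to 0.106%. The TCRBV04-01 receptor held 0.190% and 0.896% of the tumors of mice 2 and 3. The mouse 5 form of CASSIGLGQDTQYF was also found in 1 other mouse of the series, with at most 13 templates. Counted from mouse 2, the CDR3 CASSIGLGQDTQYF was found in 6 other mice of the series. The CDR3 of the TCRBV17-01 receptor was found in 3 others and that of the TCRBV04-01 receptor in 2. These counts include the low dose mice named here. Apart from OT-1 and the EG7.OVA line clone, no rearrangement reached 0.1% of in-frame templates in all 5 low dose tumors.

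By templates, TCRBV19-01 was the V gene that gained most in the tumor. It held 32.1%, 38.8%, 14.4%, 17.5% and 15.1% of endogenous tumor templates with a named V gene in mice 1 to 5, and 10.4%, 13.4%, 8.90%, 7.49% and 9.86% of those in blood. Every tumor stood above every blood. The log2 fold change was 1.14 ± 0.25 (SE), with an adjusted p of 3.18e-04 by edgeR's quasi-likelihood test over 21 V genes, of which 8, or 38.1%, passed an adjusted p under 0.05. Its largest clone alone held 79.3%, 93.4%, 46.9%, 80.1% and 65.6% of the TCRBV19-01 templates of the tumors. With the largest TCRBV19-01 clone of each sample taken out of the gene and of the whole, the gene held 8.92%, 4.04%, 8.20%, 4.04% and 5.76% of tumor and 6.38%, 7.08%, 6.65%, 6.24% and 9.06% of blood. Counted once per rearrangement, it was 7.62% ± 0.77 of tumor and 7.58% ± 0.99 of blood (SD, n = 5), and its log2 fold change was -0.04 with an adjusted p of 0.746 by edgeR. Day 0 blood held 7.83% ± 0.34 TCRBV19-01 by templates (SD, n = 5). The 5 control tumors ranged from 2.82% to 19.5% and the 5 full dose tumors from 5.89% to 42.5%.

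The 7 other V genes that passed were lower in tumor. TCRBV01-01 went from 4.95% ± 0.44 to 1.98% ± 1.35, TCRBV02-01 from 5.22% ± 0.85 to 2.71% ± 1.503, and TCRBV13-02, the most used V gene of the blood, from 11.3% ± 1.62 to 6.53% ± 2.04 (blood to tumor, SD, n = 5). These were lower in 5 of 5 mice, as were TCRBV15-01 and TCRBV23-01. TCRBV16-01 and TCRBV31-01 were lower in 4 of 5 mice, the exceptions being mouse 2, where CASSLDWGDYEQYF used TCRBV16-01, and mouse 1. Shares sum to the whole, and the median V gene had a log2 fold change of -0.69. With TMM normalization, which recentres on the bulk of the genes, the median was -0.05 and only TCRBV19-01 passed, at 1.79 with an adjusted p of 4.85e-04. With DESeq2, 5 V genes passed, 3 higher and 2 lower, and without mouse 3 or mouse 4 only 2 passed by edgeR. Over the other fits by edgeR or DESeq2, TCRBV13-02 lost its call in 9 and changed direction without passing in 1. TCRBV02-01 lost its call in 8 and kept it in 2. TCRBV01-01 and TCRBV15-01 kept theirs in 6, TCRBV23-01 in 5, and TCRBV16-01 and TCRBV31-01 in 4.

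Among the other V genes with a mean of at least 5% in either tissue, TCRBV17-01 and TCRBV29-01 each had 1 tumor far above the rest. TCRBV17-01 held 0.936%, 7.29%, 0.880%, 32.1% and 3.51% of tumor and 2.81%, 2.59%, 1.45%, 10.8% and 1.62% of blood, the value of mouse 4 being mostly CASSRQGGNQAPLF. TCRBV29-01 held 18.8% of the tumor of mouse 3 and 1.02% to 5.72% of the others. TCRBV05-01 held 13.29% and 11.996% of the tumors of mice 3 and 5 and 3.79% to 4.56% of the others. TCRBV03-01, TCRBV05-01, TCRBV13-01 and TCRBV13-03 did not pass, with adjusted p-values from 0.0676 to 0.838 by edgeR.

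**Figure D4:**
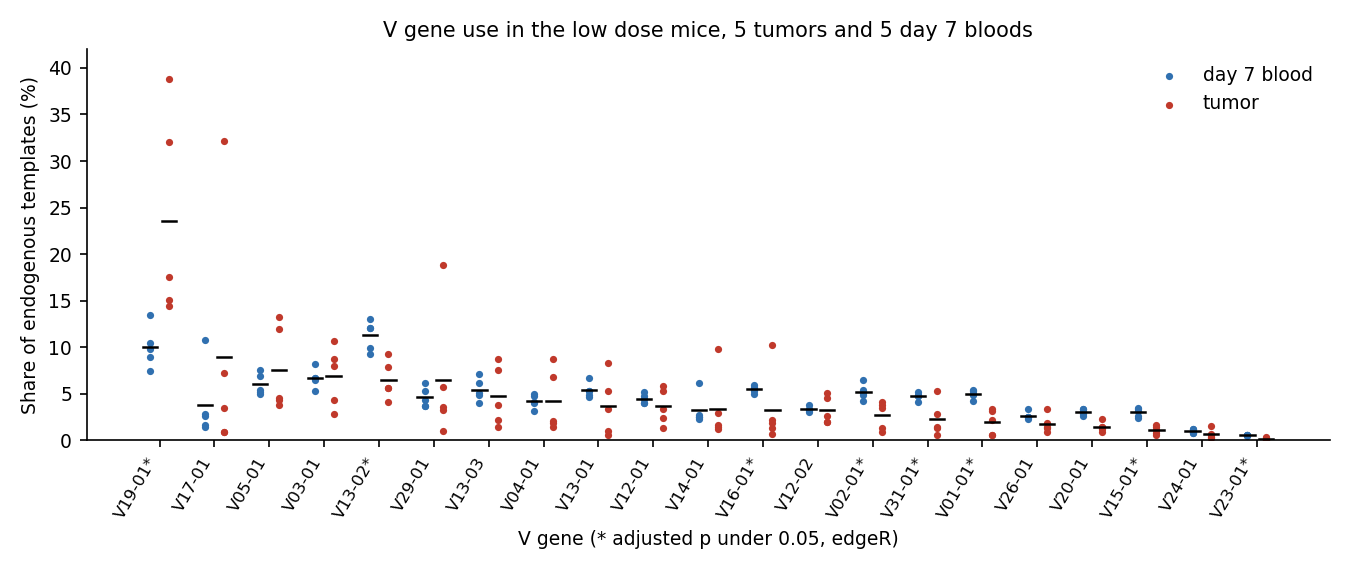
Share of endogenous templates (%, y axis) of the 21 V genes tested, with blue points for the 5 day 7 bloods, red points for the 5 tumors and black lines for the means. Stars mark the 8 genes past an adjusted p under 0.05. TCRBV19-01 has all 5 tumors above all 5 bloods, while the lone high red points of TCRBV17-01 and TCRBV29-01 are mice 4 and 3.

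J segments changed less. Of 12 tested, 1, or 8.33%, passed: TCRBJ02-03 held 2.00%, 1.07%, 2.91%, 3.98% and 4.64% of tumor and 6.22%, 7.29%, 5.68%, 5.96% and 8.06% of blood in mice 1 to 5. Its log2 fold change was -1.33 ± 0.40 (SE), with an adjusted p of 0.0200 by edgeR, and it lost the call under 7 of 10 other fits, TMM, DESeq2 and those without mouse 1, 2 or 5 among them. TCRBJ02-07, the most used J gene and that of OT-1, held 20.2%, 62.6%, 28.5%, 31.03% and 31.6% of endogenous tumor templates and 25.4% to 29.5% of those of the blood. Mouse 2 stood apart with its largest clone, which used this gene. TCRBJ02-01 was highest in mouse 1, at 30.6%, and TCRBJ01-05 in mouse 4, at 36.0%, the J genes of their largest clones.

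CDR3 length and added bases differed little. The mean CDR3 length over templates was 41.7 ± 0.15 nucleotides in tumor and 41.5 ± 0.14 in blood (SD, n = 5), longer in tumor in 4 of 5 mice, with an exact sign-flip p = 0.188. Added bases at both junctions averaged 3.20 ± 0.52 in tumor and 3.40 ± 0.11 in blood, with an exact sign-flip p = 0.312 over the 5 mice. Mouse 4 alone had more in tumor, 3.88 against 3.49. Counted once per rearrangement, CDR3s were longer in tumor in 5 of 5 mice, by 0.298 ± 0.114 nucleotides (SD, n = 5), with an exact sign-flip p = 0.0625.

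Large clones without a trace in blood were concentrated in mice 4 and 5. Of 101 endogenous clones with at least 0.5% of endogenous tumor templates and at least 10 templates, 15 had no template in the day 7 blood of their mouse. Mice 1 to 5 had 1, 0, 0, 4 and 10 of them, among 21, 17, 19, 19 and 25 large clones, and all 15 were called higher in tumor, a direction that their choice by tumor share and absence from blood had fixed. Without mouse 5 there were 5. They held 0.5004%, 7.80% and 8.65% of the endogenous tumor templates of mice 1, 4 and 5. The largest was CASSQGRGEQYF of mouse 4, with TCRBV04-01, at 83 templates or 3.21% of the tumor, when 0 of 2939 blood templates allows a share of up to 0.102%. The tumor share was 31.4 times that limit, a ratio that leaves out the counting error of the tumor share. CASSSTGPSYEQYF of mouse 5 had 118 tumor templates or 1.75%, and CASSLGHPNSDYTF and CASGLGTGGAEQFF of the same mouse had 71 each. Their tumor shares were 16.5 times the limit of that blood for the first and 9.96 times for the other clones, with the same error left out. The clone of mouse 1, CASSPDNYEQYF, had 69 templates or 0.5004%. In mice 2 and 3 the largest clones absent from blood were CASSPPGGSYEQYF, at 22 templates or 0.245%, and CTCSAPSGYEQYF, at 57 templates or 0.452%. Next in mouse 3 were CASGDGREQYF with 55 templates and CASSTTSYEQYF with 46, and in mouse 1 a TCRBV15-01 clone with 66 and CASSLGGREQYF with 60. None of these 11 was found in the day 0 blood of its mouse. Control mice had 9 of 67 large clones absent from blood and full dose mice 12 of 98, counts given without a test. Of those 12, 6 came from full dose mouse 5, where 3 blood templates are 0.622% of endogenous templates, above the size limit of 0.5%, so absence from that blood says little.

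Several of the large tumor clones were present before dosing. The largest clone of mouse 2 had 22 templates in day 0 blood, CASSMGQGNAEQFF of mouse 1 had 4, and the largest clone of mouse 3 had 7, while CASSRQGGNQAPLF of mouse 4 and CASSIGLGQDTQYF of mouse 5 had none. In all, rearrangements found in day 0 blood held 35.5%, 53.6%, 29.7%, 8.27% and 6.01% of endogenous tumor templates and 7.01%, 15.6%, 6.45%, 1.67% and 2.33% of endogenous day 7 blood templates. The day 0 bloods had 7417, 18519, 9788, 2683 and 9821 endogenous templates, so mouse 4 had the least chance of detection and mouse 2 the most. Mice 3 and 5 had nearly the same depth, with 29.7% and 6.01% of endogenous tumor templates in such rearrangements. The part of depth in these shares was not tested.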

How the data were processed

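The TCRβ CDR3 region was sequenced with the immunoSEQ assay from DNA of blood or of one part of the digested tumor. The authors deposited 1 table per sample with a template count per 87-base rearrangement, made by bias-controlled multiplex PCR and collapsing and filtering of reads; aligner and genome build are not given in the sources used here. CDR3 length and inserted bases are the deposited values in nucleotides. In-frame rows were used, and groups and pairs were taken from the labels. The members, lists and tests were chosen with earlier results of these data known.

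Samples of a mouse were thinned to equal depth for sharing and clonality (mean of 200 seeded draws). Pairs were tested with exact sign-flip tests and doses with exact permutation tests, each 2-sided, with Benjamini-Hochberg adjustment. Clones with at least 5 templates were tested with Fisher's exact test within a mouse. Templates per V or J gene were tested with edgeR 4.0.16 (quasi-likelihood, mouse and tissue as terms, all templates with a named gene as library size, filterByExpr), with DESeq2 1.42.0 as an alternative in R 4.3.3; Python 3.11.15 and scipy 1.17.1 were used elsewhere. Rows without a gene name held at most 0.0555% (V) and 0.102% (J) of templates and were left out. Same-numbered samples came from the same animal, and their V use deviated together, with correlations from 0.59 to 0.96. Wilson intervals (95%) and limits of 3 templates for a count of 0 cover counting error only. Named are the 3 largest endogenous clones of each sample, the 3 largest absent from blood, CDR3s higher in at least 2 tumors, and V or J genes past an adjusted p of 0.05 or with at least 5% of templates; CDR3s of 15 or more residues, and a few shorter ones, are not spelled out. The procedures were tested on simulated data. Alternatives covered the denominator, depth, clone definition, minimum size, normalization, pairing and each mouse left out.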

Additional observations from a re-analysis of the deposited data

Results flagged for a closer look

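The within-mouse log2 ratio of the OT-1 share, tumor over day 7 blood, was 2.60 higher at the low dose than at the full dose, a difference between groups with an exact permutation p = 0.00794 over 5 and 5 mice. The full dose bloods held 48.1% to 79.5% OT-1 and the low dose bloods 3.12% to 7.70%, and the part this has in the difference was not tested. In percentage points the difference was 21.1, with an exact permutation p = 0.0794. In 14 sets of 5 low dose values examined for a sample far from the others, none passed Dixon's criterion of 0.71. That covers those sets only and not the shares of single V or J genes. For TCRBV17-01 the tumor of mouse 4, and for TCRBV29-01 that of mouse 3, stood far above the rest, as given above.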

How the results depend on the processing

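The OT-1 difference between tumor and blood and the clonality difference kept their direction under every alternative run. Without the mouse as a replicate block, the OT-1 difference of 36.2 percentage points and the clonality difference of 0.270 each gave an exact permutation p = 0.00794. Leaving out each mouse gave 28.4 to 41.5 percentage points, 0.243 to 0.298 in clonality, 59.3 to 68.8 percentage points for own against other pairs, 0.112 to 0.252 nucleotides of CDR3 length and -0.355 to -0.0863 added bases. The OT-1 log2 ratio of low dose against control was -0.14 and became 1.06 with all in-frame templates, 13.1 in percentage points and 0.27 as log2 odds ratio, and leaving out a mouse gave -0.36 to -0.02. Against the full dose it was 2.50 to 2.72 without 1 mouse, 21.1 in percentage points (exact permutation p = 0.0794), and 2.60 with a replicate block by mouse number (exact sign-flip p = 0.0625). These numbers mark different animals, and the block changed no other comparison between doses. The shared share differed from control by 3.19 to 12.99 and from the full dose by 0.0738 to 13.4 percentage points without 1 mouse, and by 13.96 and 5.57 at one depth for all mice. The clonality difference against control was -0.0289, 0.00153 at one depth of 482 templates for all mice, and -0.0564 to 0.00976 without 1 mouse, the positive value being without control mouse 2. Against the full dose it was 0.0721 to 0.129 without 1 mouse, 0.125 without thinning and 0.0749 at one depth. One depth for all mice, the log2 odds ratio and CDR3 nucleotides as the clone were chosen after seeing the data.

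Clones higher in tumor numbered 194 of 807 tested, 118 of 17596 with no minimum of templates and 165 of 364 at equal depth. They numbered 69 of 807 with all in-frame templates. Without 1 mouse they numbered 141 to 169, with the tested clones of that mouse left out as well. Clones lower numbered 29 of 807 tested, 8 of 394 with at least 10 templates, 9 of 17596 with no minimum and 10 of 364 at equal depth. They numbered 18 of 807 at an adjusted p under 0.01 and 53 of 807 with all in-frame templates. Without 1 mouse and its tested clones they numbered 18 to 26, the 18 being without mouse 1. Large clones absent from blood numbered 15 of 101 large clones, 7 of 62 at a limit of 1% and 61 of 196 at 0.2%. Without 1 mouse they numbered 5 to 15, the 5 being without mouse 5. Added bases were 0.122 more in tumor when each rearrangement was counted once. V genes past the threshold numbered 8, 1 with TMM, 5 with DESeq2, 5 with no filter, 4 with no replicate block, 0 with the exact sign-flip test, which 5 pairs cannot pass, and 2 to 8 without 1 mouse (4, 2, 2 and 5 without mice 2 to 5). Each rearrangement counted once gave 12, 6 higher and 6 lower, against 1 higher and 7 lower, with TCRBV13-02 at 0.038 and TCRBV19-01 at -0.043. TCRBV19-01 kept its call in the other 9 fits by edgeR or DESeq2. J genes numbered 1, 0 with TMM, DESeq2, no replicate block or the sign-flip test, and 0 to 2 without 1 mouse. The log2 ratio of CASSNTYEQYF reversed to -0.45 with all in-frame templates. The causes were not tested. Depth limits the blood more than the tumor in 4 of 5 mice: 3 templates are 0.0612% to 0.121% of endogenous templates in the bloods, and in mouse 4 they are 0.116% of the tumor and 0.102% of the blood.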

Other observations

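CDR3s that end in GTGGDEQYF, an ending picked after its values were seen, held 43.5% of the endogenous tumor templates of mouse 2, 14.2% of mouse 4 and 0.937% of mouse 5, on 4, 1 and 3 CDR3s. Mouse 1 had 1 such template in tumor and mouse 3 had none. In day 7 blood they held 8.10% in mouse 2, 1.36% in mouse 4 and 0.136% in mouse 1, and mice 3 and 5 had none. They include the largest clone of mouse 2 and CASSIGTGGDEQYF of mouse 4, both with TCRBV19-01, and the TCRBV17-01 receptor of mice 2 and 5. Among the tumors of other doses the ending reached 3.61% in full dose mouse 5 and 0.297% in control mouse 3.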
